A study of Drosophila melanogaster with 3 samples.

Results

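The pickpocket genes ppk, ppk26, ppk12 and ppk23 were followed through single-cell libraries of the chemosensory organs of Drosophila melanogaster larvae. The 4 genes were chosen by name, with their counts in these libraries known, out of 20 ppk genes and 10457 gene symbols listed in any of the tables, and their levels are therefore given as a description. Sense organs carrying a fluorescent label were isolated by hand from third-instar larvae, dissociated enzymatically and run through DisCo, a droplet method that captures cells with barcoded beads. There is 1 group of 3 replicate libraries, called replicates 1, 2 and 3. Their titles also carry the endings Sens40M, SensMix and SensSingle, in that order, which the labels do not explain, and whether the libraries were prepared alike is not stated there. The labels give no genotype, driver line, treatment or number of larvae, and they do not say whether the libraries came from separate larvae.

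Pickpocket genes encode subunits of degenerin/epithelial sodium channels, cation channels in which several subunits, alike or different, form 1 pore. The ppk and ppk26 subunits work together in class IV multidendritic neurons of the larval body wall, which branch under the epidermis and report noxious touch. In adult flies, ppk23 is known from leg taste neurons that detect pheromones, where ppk25 and ppk29 act beside it. Larval head organs hold olfactory, gustatory, thermosensory and mechanosensory neurons, so the questions followed here were in which libraries and barcodes each gene was counted and whether ppk and ppk26 were counted together.

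Each bead carries a barcode, by which transcripts are assigned to 1 capture, and no barcode is called a cell here. Barcodes with at least 200 genes were kept, 61, 214 and 231 in replicates 1, 2 and 3. They held 497492, 654062 and 345621 counts, and the 3 deepest barcodes of each library took 42.0% to 46.9% of those. In replicates 1, 2 and 3, 30, 8 and 25 kept barcodes lay within 4 edits of 1 of the deepest 3, so barcodes are not independent. Only 2 barcode sequences occurred in more than 1 library. The libraries were unlike. The 12 neuron markers summed to 408, 7012 and 14690 counts per 1000000 (CPM), 6 epidermis markers to 1063, 329 and 165 CPM, and 8 glia markers to 762, 3741 and 477 CPM. In replicates 2 and 3 the epidermis sum was mostly cora, with 198 of 215 and 50 of 57 counts, against 27 of 529 in replicate 1. The other epidermis markers were highest in replicate 1, such as grh with 163, 1 and 2 counts and Gasp with 237, 4 and 3. The co-receptor gene Orco was counted only in replicate 2, and Ir25a in replicates 2 and 3, so of the co-receptor genes that mark olfactory and many gustatory neurons, 0 were counted in replicate 1. Intervals printed with a level are exact Poisson, those with a share exact Clopper-Pearson, both at 95% and for counting error only. Those with a fold or ratio of a gene are built from Clopper-Pearson bounds and also cover counting error only. Genes given such an interval were picked for their large folds, so the interval is not a test of them.

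The libraries carried different pickpocket genes. In the kept barcodes ppk had 3, 63 and 0 counts in replicates 1, 2 and 3. Its level was 6.03 CPM in replicate 1 (interval 1.24 to 17.6) and 96.3 CPM in replicate 2 (interval 74.0 to 123). In replicate 3 its row was not listed, and a count of 0 allows up to 8.68 CPM. Replicate 2 thus held nearly all ppk transcripts, and its interval overlaps neither of the others.

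ppk26, the partner subunit, had 0, 57 and 109 counts. Its level was 87.1 CPM in replicate 2 (interval 66.0 to 113) and 315 CPM in replicate 3 (interval 259 to 380), while replicate 1 allows up to 6.03 CPM. The order over the libraries therefore differed between the 2 genes, since the library with most ppk26 counts was 1 in which ppk was not counted.

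ppk12 had 1, 17 and 0 counts, which gave 2.01 CPM in replicate 1 and 26.0 CPM in replicate 2 (interval 15.1 to 41.6). ppk23 had 0, 28 and 1 counts, which gave 42.8 CPM in replicate 2 (interval 28.4 to 61.9) and 2.89 CPM in replicate 3 (interval 0.0733 to 16.1). Both genes thus lay almost wholly in replicate 2. Means over the 3 libraries were 34.1 ± 54.0 CPM for ppk, 134 ± 163 for ppk26, 9.33 ± 14.5 for ppk12 and 15.2 ± 23.9 for ppk23 (SD, n = 3). Each SD exceeds its mean, and counts carry no scale of gene length, so levels of different genes are not compared.

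**Figure D1:**
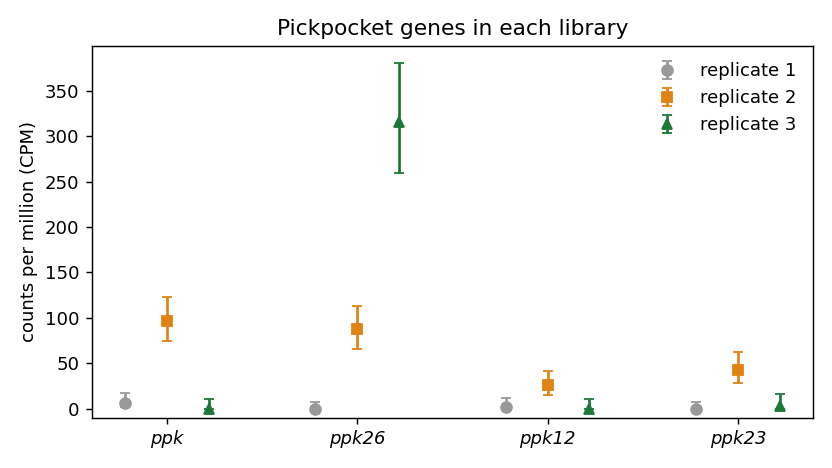
Level of each pickpocket gene in the kept barcodes of each library, in CPM, with exact 95% Poisson intervals as bars. ppk, ppk12 and ppk23 stand highest in replicate 2, whereas ppk26 reaches 315 CPM in replicate 3, where ppk is at 0.

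Of the whole degenerin family, counting all ppk genes listed, these members made up 4 of 29 counts (13.8%) for replicate 1. The shares were 165 of 228 (72.4%) for replicate 2 and 110 of 129 (85.3%) for replicate 3. Among the 27 other family genes looked up, 14 had a count in kept barcodes and 2 had 10 or more. These were ppk9, with 1, 52 and 5 counts in replicates 1, 2 and 3, and ppk20, with 8, 1 and 1. The known adult partners of ppk23 were all but missing, as ppk25 was not listed and ppk29 had 1 count in replicate 3.

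At least 1 of the 4 genes was counted in 4 barcodes of replicate 1 (6.56%), 50 of replicate 2 (23.4%) and 57 of replicate 3 (24.7%). ppk was counted in 3 barcodes of replicate 1 and 24 of replicate 2 (11.2%, interval 7.32 to 16.2). ppk26 was counted in 30 barcodes of replicate 2 (14.0%, interval 9.66 to 19.4) and 57 of replicate 3 (24.7%, interval 19.3 to 30.8). ppk12 was counted in 7 and ppk23 in 15 barcodes of replicate 2 (3.27% and 7.01%). Most positive barcodes had 1 count, among them 15 of 24 for ppk and 23 of 30 for ppk26 in replicate 2, and 45 of 57 for ppk26 in replicate 3.

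Positive barcodes were therefore followed by depth class, with 200 to under 500, 500 to under 1000, and 1000 or more genes per barcode. In replicate 2 these classes held 160, 25 and 29 barcodes, at medians of 431, 1317 and 6787 counts. ppk was counted in 6, 3 and 15 of them (3.75%, 12% and 51.7%) and stood at 79.8, 75.3 and 100 CPM. Its share of barcodes thus went up with depth while its level did not differ beyond counting error. Thinned to 395 counts, the exact expected shares were 2.78%, 3.05% and 4.37%, with 61 shallower barcodes of replicate 2 left out, all of the first class.

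ppk26 behaved otherwise. In replicate 2 it was counted in 14, 5 and 11 barcodes of the 3 classes (8.75%, 20% and 37.9%), but its level was 199 CPM (interval 112 to 329), 151 CPM (interval 55.2 to 328) and 66.8 CPM (interval 46.8 to 92.5). In replicate 3, with 194, 27 and 10 barcodes, it was counted in 46, 8 and 3 (23.7%, 29.6% and 30%), at 529 CPM (interval 396 to 692), 319 CPM (interval 182 to 518) and 205 CPM (interval 146 to 279). In both libraries the level in the deepest class lay below that in the shallowest, and the 2 intervals did not overlap. At 395 counts the expected share was 7.64%, 5.61% and 2.63% in replicate 2 and 17.9%, 10.5% and 4.44% in replicate 3, where 60 shallower barcodes were left out.

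**Figure D2:**
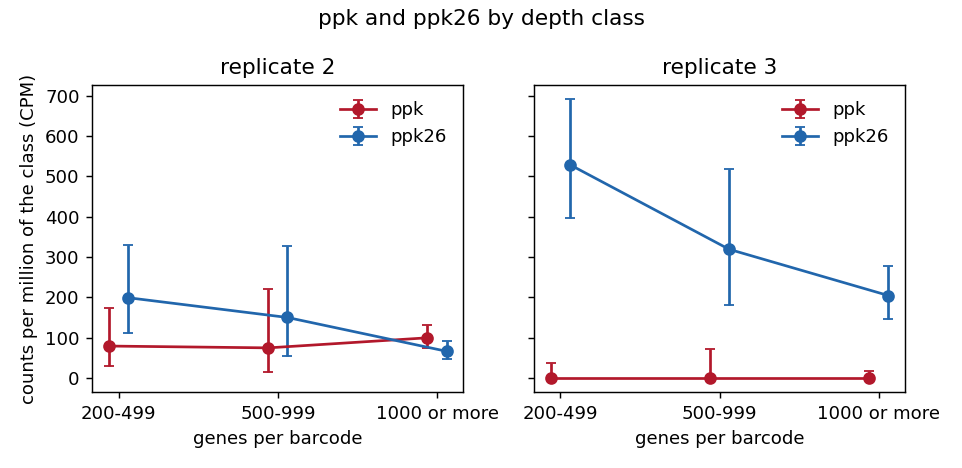
Level of ppk and ppk26 in barcodes of 3 depth classes (genes per barcode, low to high) in replicates 2 and 3, in CPM of the class, with exact 95% Poisson intervals. ppk26 lies at 66.8 CPM in the deepest and 199 CPM in the shallowest class of replicate 2, and at 205 and 529 CPM in replicate 3.

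Put as shares of counts, deep barcodes (1000 or more genes) held 63.2% of the ppk26 counts of replicate 2 (interval 49.3 to 75.6) and 82.4% of all counts. In replicate 3 they held 36.7% of ppk26 (interval 27.7 to 46.5) and 56.5% of all counts. For ppk the share in replicate 2 was 85.7% (interval 74.6 to 93.3), for ppk12 94.1% (interval 71.3 to 99.9) and for ppk23 89.3% (interval 71.8 to 97.7), each with 82.4% of all counts inside its interval. Without the 3 deepest barcodes, the ppk26 share was 44.7% in replicate 2, beside 69.7% of the remaining counts, and 2.82% in replicate 3, beside 21.2%. As levels, deep barcodes then held 64.4 CPM of ppk26 in replicate 2 (interval 37.5 to 103) and 49.5 CPM in replicate 3, from 2 counts (interval 6 to 179).

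Counts summed per library and class were then tested across all genes, deep barcodes against shallow ones of under 500 genes, with the library as a block. By the quasi-likelihood test of edgeR, the log2 fold change of ppk26 was -1.50 with an SE of 0.94 (Benjamini-Hochberg adjusted p = 0.952, unadjusted p = 0.109). Its level was lower in deep barcodes in both libraries that carried it. ppk26 did not pass, and the median gene stood at a log2 fold change of 0.26. Of 1508 genes tested, 3 were called lower in deep barcodes (0.199%) and 0 higher (0%), while 49 had an unadjusted p under 0.05. DESeq2 called 8 lower and 0 higher. The 3 were fz2, CG6005 and the ribosomal pseudogene 28SrRNA-Psi:CR40596, named after their values were seen. The call count rests on single libraries, being 24 lower and 2 higher without replicate 1, 1 lower without replicate 2 and 0 without replicate 3. ppk, ppk12 and ppk23 did not pass the count filter.

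Neuron markers and ppk26 were set side by side at low depth. Among shallow barcodes of replicate 2, ppk26 was counted in 12 of 100 with at least 2 neuron markers (12%, median 492 counts) and in 2 of 60 with fewer (3.33%, median 370 counts). In replicate 3 the shares were 40 of 155 (25.8%, median 481 counts) and 6 of 39 (15.4%, median 385 counts). In each library the binomial intervals of the 2 shares overlapped, from 6.36 to 20.0 and 0.406 to 11.5 in replicate 2 and from 19.1 to 33.4 and 5.86 to 30.5 in replicate 3. As the barcodes with markers were also deeper, the part of depth in these shares was not tested. As a level, ppk26 stood at 250 CPM (interval 133 to 427) with and 86.2 (interval 10.4 to 311) without the markers in replicate 2, and at 556 (interval 407 to 742) and 399 (interval 160 to 822) in replicate 3. No class of cells that should lack ppk26 was named here, so a level of free RNA was not set.

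ppk and ppk26 met in 11 barcodes, all of replicate 2 (5.14% of 214, interval 2.59 to 9.01). Another 13 had ppk alone, 19 had ppk26 alone and 171 had neither. By depth, the barcodes with both numbered 0 of 160, 2 of 25 and 9 of 29. The 14 shallow barcodes with ppk26 and the 6 with ppk had none in common, which at this depth allows up to 23.2% and 45.9% of them.

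Among deep barcodes of replicate 2, ppk was counted in 9 of 11 with ppk26 (81.8%, interval 48.2 to 97.7) and in 6 of 18 without it. Other family genes were also counted more often in the barcodes with ppk26, ppk23 in 7 of 11 and 5 of 18 and ppk9 in 8 of 11 and 9 of 18. Those with ppk26 were much deeper, at a median of 28073 counts against 4976, and the part of depth was not tested. Leaving out the 3 deepest barcodes, all of which had both genes, gave 6 of 8 with ppk26 and again 6 of 18 without, at medians of 10819 and 4976 counts. In replicate 3 ppk had 0 counts, so all 57 barcodes with ppk26 were bound to be without a count of it. The upper binomial bound of 6.27% is for barcodes with a ppk count, not for those with uncounted ppk transcripts. Of the 57, 46 were shallow, at a median of 489 counts, where a transcript is easily missed. The 3 deep ones, at a median of 21551 counts, carried 40 ppk26 counts and 0 of ppk.

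**Figure D3:**
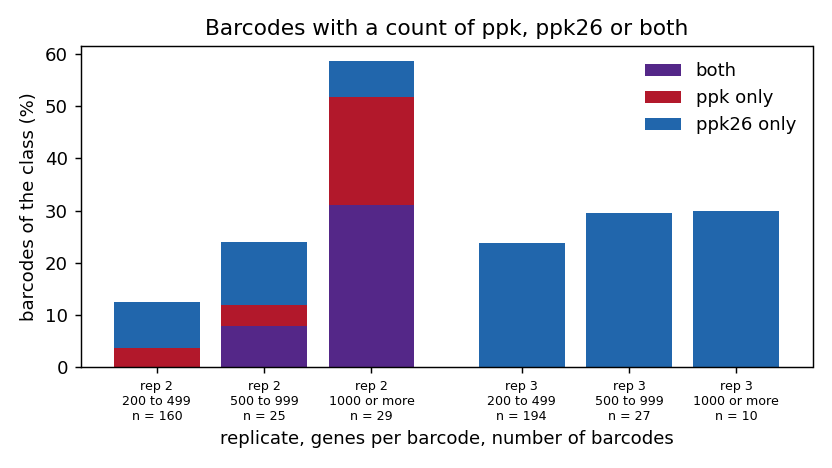
Share of the kept barcodes of each depth class with a count of both ppk and ppk26, of ppk only or of ppk26 only, in replicates 2 and 3, with the number of barcodes under each bar. Barcodes with both genes appear only in replicate 2, in 9 of 29 of the deepest class, and replicate 3 has ppk26 only.

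Other genes of class IV nociceptive neurons were spread differently over the libraries. Of the 9 genes listed, 8 were in the tables and summed to 330, 323 and 810 CPM in replicates 1, 2 and 3. pain, a TRP channel gene, had 1, 64 and 0 counts, so that it followed ppk in lying almost wholly in replicate 2. SK, a calcium-gated potassium channel gene, had 11, 79 and 242 counts, and Gr28b, a gustatory-receptor-family gene of light avoidance, had 0, 2 and 25. Piezo had 24, 33 and 1 counts and ct 127, 17 and 9. kn, which sets class IV identity, had 1 count in all, in replicate 1, so this defining gene was at 0 in both libraries with ppk26. Of the bitter receptor genes that adult ppk23 neurons or their neighbours carry, Gr66a had 0, 50 and 0 counts, Gr33a 0, 15 and 0 and Gr32a 0, 2 and 0, all in replicate 2 as were 28 of 29 ppk23 counts. Other genes of that list did not lie there alone, as VGlut, the vesicular glutamate transporter gene, had 1, 21 and 42 counts and fru, a transcription factor gene of sex-specific circuits, had 77, 77 and 8.

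The barcodes that hold the counts were then examined, named by their depth rank, 1 being the deepest of a library. In replicate 2 the largest ppk counts were 10 in rank 1, 10 in rank 13 and 7 in rank 2. The largest ppk26 counts were 8 in rank 13, 7 in rank 1, 7 in rank 3 and 5 in rank 2. Rank 1 had 157381 counts and rank 13 had 7689, so the same number of ppk counts came from barcodes of very different depth. Of 16 barcodes of replicate 2 with 2 or more of the 4 genes, 3 had all 4, and these were ranks 1, 5 and 6.

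Gathering was defined, after the counts were seen, as a share of the gene whose lower bound lies above 2 times what the barcode holds of all transcripts, from at least 3 counts. This held for 5 pairs of a member and a barcode. In replicate 2, pairs with at least 3 counts numbered 8 for ppk, 5 for ppk26, 2 for ppk12 and 2 for ppk23. In replicate 3 they numbered 6 for ppk26. Of the other ppk genes, ppk5 in rank 12 of replicate 2 also met the rule. Genes outside the family were not put through it, so whether 5 is many is not known. Rank 13 of replicate 2, with 1.18% of the library, held 15.9% of ppk (interval 7.88 to 27.3) and 14.0% of ppk26 (interval 6.26 to 25.8). Rank 12, with 8021 counts or 1.23%, held 7 of 17 counts of ppk12 (41.2%, interval 18.4 to 67.1). Rank 6, with 28073 counts or 4.29%, held 9 of 28 counts of ppk23 (32.1%, interval 15.9 to 52.4). The fifth pair was ppk26 in rank 48 of replicate 3, with 3 of 109 counts (2.75%, interval 0.571 to 7.83, in a barcode with 0.263% of the library), just inside the limit. None of these 4 barcodes was among the 3 deepest of its library or within 4 edits of them.

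**Figure D4:**
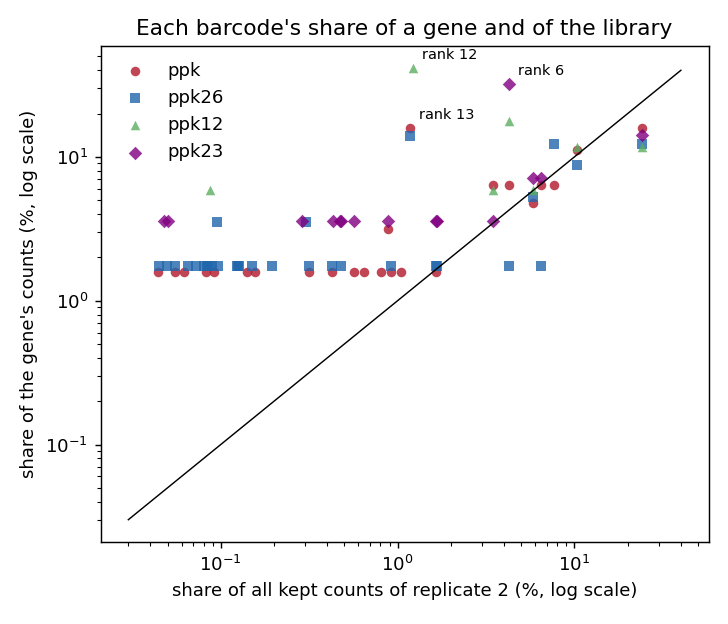
For every barcode of replicate 2 with a count of a pickpocket gene, its share of that gene's counts against its share of all kept counts, both in percent on log scales; the line marks equal shares. Ranks 13 (ppk and ppk26), 12 (ppk12) and 6 (ppk23) stand above the line among the deep barcodes, and most points in the level rows at the left are barcodes with 1 count, which lie above the line because 1 count is already a large share of so few.

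Rank 13, which gathered ppk and ppk26, had few counts of chemoreceptor genes, but its size gives no more. It held 2 of 395 counts of Orco (0.506%, interval 0.0614 to 1.82). It had 4 counts of Or47a, Or94a and Or94b together and 1 of Gr68a. For each of these genes the interval of the share includes the barcode's 1.18% of the library, so a lack of them is not shown. The barcode had no counts of ppk12, ppk23 or ppk9. It did hold 6 of the 17 counts of ct (35.3%, interval 14.2 to 61.7), the homeodomain gene that shapes dendrites of multidendritic neurons and also acts in external sense organs. It held 3 of 33 counts of Piezo (9.09%, interval 1.92 to 24.3), a mechanically gated channel that acts beside ppk in body-wall nociception. Of the 9 other genes listed for class IV neurons it carried these 2, while pain, SK and Gr28b were at 0 there. These had 64, 79 and 2 counts in the library, too few for a 0 to show absence from a barcode of this size. Neuron markers reached 6373 CPM in it and 7019 in the other barcodes of the library, and 8 of 12 were counted. Support-cell markers stood at 1170 CPM (9 counts, interval 535 to 2222), against 150 in the other barcodes, 8 of these counts being pros. Epidermis markers stood at 1040 CPM (8 counts, all of cora, interval 449 to 2050), against 320, and glia markers at 2471 CPM (interval 1488 to 3859), against 3756. The part of other cells' transcripts in this barcode was not tested. The largest folds over the other kept barcodes, among genes with at least 20 counts in it, were 7.59 for Chd64, a calponin-like actin-binding protein, 4.74 for CG45057 and 4.15 for CG3662.

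Rank 12, which gathered ppk12, also held 4 of the 7 counts of ppk5 (57.1%, interval 18.4 to 90.1), named after its values were seen. It had 0 counts of ppk, ppk26 and ppk23, but with 63, 57 and 28 in the library these are too few to show absence. It held 3 of 50 counts of Gr66a (6%, interval 1.25 to 16.5), a bitter receptor gene, 1 of Ir76b and 3 of Orco. The largest fold in it was 6.87, for the spliceosomal gene SmE.

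Rank 6, which gathered ppk23, held counts of both taste and olfactory receptor genes. It had 6 of 15 counts of Gr33a (40%, interval 16.3 to 67.7), 1 of 2 of Gr32a and 2 of 50 of Gr66a, all genes of bitter-sensing neurons, though the Gr66a share of 4% is no more than the barcode's 4.29% of the library. It had 10 of 42 counts of Ir25a (23.8%, interval 12.1 to 39.5), the ionotropic co-receptor gene, and 1 of 6 of Ir76b. Of the olfactory genes it had 6 of 395 counts of Orco, 6 of 249 of Or47a, 4 of 113 of Or94a, 1 of 107 of Or94b and 1 of 17 of Or24a. The Orco share of 1.52% (interval 0.559 to 3.28) lay below the barcode's 4.29%, and the intervals of the Or genes include 4.29%. Besides ppk23 the barcode held 3 of 17 ppk12 counts, 4 of 63 ppk counts and 1 of 57 ppk26 counts. The largest folds in it were 18.6 for fred, which encodes a cell-adhesion protein, 17.3 for CG14044 and 8.92 for CG10103, and norpA, the phospholipase C gene of phototransduction, stood at 5.31.

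For each gene with at least 10 counts in a library, the barcodes that held most, down to 50% of its counts, were summed and set against the other kept barcodes. For ppk in replicate 2 these were ranks 1, 2, 3, 4 and 13, with 35 of 63 counts and 49.6% of all counts. For ppk26 they were ranks 1, 2, 3, 5 and 13 in replicate 2 (30 of 57 counts, 49.1% of all) and 8 barcodes in replicate 3 (56 of 109 counts, 44.8% of all). For ppk12 they were ranks 12 and 6 (10 of 17, 5.52% of all), and for ppk23 ranks 6, 1 and 4 (15 of 28, 34.8% of all). Apart from ppk12 and ppk23, the holders' share of the gene was thus close to their share of all transcripts.

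In the 8 barcodes holding ppk26 in replicate 3, neuron markers stood at 16235 CPM, against 13435 in the other barcodes, and glia markers at 368 against 566. The genes of the largest fold there were the noncoding CR44939 (98 counts in them and 1 outside, a ratio of 121, interval 21.2 to 4817), C1GalTA, a galactosyltransferase gene (81 and 0 counts, at least 33.3-fold higher against 3 counts over the other barcodes), wnd, the kinase of axon injury signalling (231 counts, 21.9-fold), CG3964 (19.7-fold) and Tep3 (15.1-fold). SK had 113 of its 242 counts in them, and Gr28b 10 of 25 (40%), beside 44.8% of all counts. The class IV list stood at 846 CPM in them (interval 707 to 1004), against 781 in the other barcodes. The deepest barcode, with 34.3% of the library, held 27 of the 56 ppk26 counts, and rank 2 held 11. With only ranks 1 and 2 as holders, which a smaller holding share gives, 0 of the 5 genes of the largest fold were named again. Without the 3 deepest barcodes 4 of the 5 were, so the naming of these genes depends on the shallower holders.

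In the barcodes holding ppk and ppk26 in replicate 2, pain, SK and Piezo had most counts of the class IV list, with 47, 27 and 24 counts for ppk and 46, 30 and 24 for ppk26. These sets share ranks 1, 2, 3 and 13, that is 4 of their 5 barcodes, so they are nearly the same data. SK had 79 counts in the library, of which the holders of ppk thus took 27, while they took 47 of 64 of pain and 24 of 33 of Piezo, beside 49.6% of all counts. The 9-gene list stood at 376 CPM in the holders of ppk, against 270 in the other barcodes, and at 383 against 264 for ppk26. The holders of ppk23, ranks 6, 1 and 4, took 48 counts of pain and 21 of Piezo, beside 34.8% of all counts. In them the list stood at 417 CPM, against 272, so it was not particular to the holders of ppk and ppk26. Among the genes of the largest fold, CG13344 stood 7.44-fold higher with ppk (interval 2.23 to 38.8), on 22 and 3 counts, and CG7083 10.9-fold higher with ppk26 (interval 2.67 to 95.9), on 21 and 2 counts. The holders of ppk and of ppk23 had the same 21 and 2 counts of CG7083, and rank 1 is in each of these sets. With the 3 deepest barcodes left out, 0 of the 5 genes named by the rule were named again for ppk, ppk26, ppk12 and ppk23 in replicate 2. Glia markers, led by nrv2 and Gs2, stood at 4216 CPM in the holders of ppk, against 3273 in the others, at 4341 against 3163 for ppk26 and at 5355 against 2880 for ppk23. Rank 1, the deepest barcode, is in each of these sets. In rank 6 alone, with 9 of the 28 ppk23 counts, glia markers stood at 1781 CPM, against 3829. For ppk12, whose holders are ranks 12 and 6, glia markers were lower, at 1995 against 3843. Whether glial transcripts in the same barcodes bear on the pickpocket counts was not tested.

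In the holders of ppk12 the largest folds were 14.3 for both CG14044 and fred, but rank 6, which also leads the holders of ppk23, carried 24 of the 25 CG14044 counts and all 20 of fred. In those of ppk23 CG7083 stood 19.7-fold higher on 21 and 2 counts and CG2924 12.5-fold higher on 20 and 3. The holders of ppk, which also include ranks 1 and 4, had the same counts of both genes, so neither is particular to ppk23. The genes listed for adult ppk23 neurons stood at 184 CPM in the holders of ppk23, against 288 in the others. In rank 6 alone they stood at 392 CPM (11 counts, interval 196 to 701), against 246. In the holders of ppk12 they stood at 388, against 244, led by Gr33a and Gr66a with 6 and 5 counts. All 6 Gr33a counts lay in rank 6 and 0 in rank 12, the barcode with most ppk12.

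Likeness of pattern was measured as Pearson's r of log(1 + counts per 10000) over the 63 deep barcodes of the 3 libraries, after each library's mean was subtracted. The points share library and depth, and ppk, ppk26, ppk12 and ppk23 were counted in only 18, 14, 7 and 13 of them, so the values describe a few barcodes. The genes nearest to ppk were CTPsyn (r = 0.70), the CTP synthase gene, and Obp46a, an odorant-binding protein gene (r = 0.62). Those nearest to ppk26 were Gpo-1 (r = 0.70), a mitochondrial glycerophosphate oxidase gene, and Cib2 (r = 0.64). Cib2 was among the 5 nearest of both ppk (r = 0.62) and ppk26. For ppk12 they were CG4603 (r = 0.84) and CG14341 (r = 0.79), and for ppk23 CG15073 (r = 0.63) and CG11722 (r = 0.62).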

How the data were processed

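The deposited tables of the authors give raw counts, whole numbers for the genes listed in each table (6290, 7721 and 5926 in replicates 1, 2 and 3), without normalization by the authors. The submitters' processing notes name STAR 2.7.0 and Seurat 3.1.2 without a role. The build, annotation, collapsing of copies to molecules, strand and cell filter are not given in the sources used here, so no coordinates are printed. Symbols gave 8165 of 10457 matches to the gene name table, and 95 of 119 listed genes were matched. ppk (FBgn0020258, arm 2L), ppk26 (FBgn0035785, arm 3L), ppk12 (FBgn0034730, arm 2R) and ppk23 (FBgn0030844, arm X) overlap no other gene in the Ensembl annotation used.

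Gene rows not listed in a table were taken as 0, since each listed row has at least 1 count. Barcodes with at least 200 genes were kept, and doublets were not called or removed. Levels are counts scaled to 1000000 per set of barcodes. Where nothing was counted the limit is 3 counts. Shares at equal depth are exact hypergeometric expectations at 395 counts, the 25th percentile. Intervals used scipy 1.17.1. In R 4.3.3, sums per library and depth class went through filterByExpr, TMM scaling and the glmQLFTest of edgeR 4.0.16 with the library as a block, which was checked on simulated counts, with DESeq2 1.42.0 as an alternative. SE is the log2 fold change divided by the root of its F statistic. P-values weigh the difference of deep and shallow sums within a library against how far it varies between these libraries, which may be technical.

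Members and lists were chosen with earlier results of these data known. Named genes were the 4 members, family genes with 10 or more counts, the 5 of the largest fold with at least 20 counts in the holding barcodes, the 5 of the highest r, and up to 3 leading genes per list, of which a selection is printed. Holding barcodes were taken in falling order of the gene's count, the deeper first at ties. Other genes were named after their values were seen. Protein, promoter and transcript sequences were not used here.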

Additional observations from a re-analysis of the deposited data

Results flagged for a closer look

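Barcodes with fewer than 200 genes, which enter no comparison, also held pickpocket counts above the limit of 3 that a count of 0 allows. In replicate 3, ppk26 had 11 counts in 11 of 229 such barcodes with counts, a level of 462 CPM (interval 231 to 827). In replicate 2, ppk23 had 4 counts in 4 of 287, a level of 113 CPM (interval 30.8 to 290). ppk26 had 2 counts in such barcodes of replicate 2, a level of 56.6 CPM (interval 6.85 to 204). ppk and ppk12 had 0 counts there in each library. In replicate 2 the upper Poisson bound of that 0 is 104 CPM, above their 96.3 and 26.0 CPM in kept barcodes, so absence is not shown. With 1 group of 3 libraries, no outlying sample and no difference between groups could be tested.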

How the results depend on the processing

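Apart from leaving out a replicate, 96 values were recomputed over 23 results, of which 20 moved and 0 reversed. Only the fold change of ppk26 could be labelled as reversed. A mean over libraries counted as moved when it shifted by at least its SD. As the SD of each level exceeds its mean, a level could fall to 0 without counting. The share with both ppk and ppk26 went from 1.71% to 0.0454% at equal depth and was not counted as moved. A minimum of 500 genes, which removes shallow barcodes, moved the mean share of barcodes to 13.8% for ppk, 4.60% for ppk12, 8.93% for ppk23 and 6.79% for ppk with ppk26. Of the ppk26 counts, the share in deep barcodes was 44.7% in replicate 2 and 2.82% in replicate 3 without the 3 deepest barcodes, and 51.4% in replicate 3 with 500 genes as the limit. Against 3 genes called lower in deep barcodes, DESeq2 called 8, its size factors in edgeR gave 12 and no replicate block gave 0; the cause was not tested. The pairing is that both sums of a library come from 1 suspension. Of the 5 genes named for holding barcodes, a smaller holding share left 2 for ppk, 2 and 0 for ppk26, 0 for ppk12 and 3 for ppk23, and leaving out the 3 deepest left 0 for each in replicate 2 but 4 of 5 for ppk26 in replicate 3. Gathered pairs, a rule with alternatives chosen after seeing the data, fell to 3 at 4 times the share.

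Leaving out each replicate gave mean levels of 3.02 to 51.2 CPM for ppk, 43.6 to 201 for ppk26, 1.01 to 14.0 for ppk12 and 1.45 to 22.9 for ppk23. Mean shares of barcodes were 2.46% to 8.07%, 7.01% to 19.3%, 0.820% to 2.46% and 0.216% to 3.72% in the same order, and 0% to 2.57% for both ppk and ppk26. The genes called numbered 0 to 24 lower and 0 to 2 higher, and the log2 fold change of ppk26 was -1.64 to -1.46. Values of single libraries have no such range. Depth limits co-detection, as at 395 counts the expected mean share with both genes is 0.0454%, and the result rests on replicate 2. ppk26 did not pass the count filter without the 3 deepest barcodes.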

Other observations

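ppk9 was the other pickpocket gene with many counts. In replicate 2 it was counted in 10, 3 and 17 barcodes of 200 to under 500, 500 to under 1000, and 1000 or more genes, at 146 CPM (interval 73.0 to 262), 75.3 CPM (interval 15.5 to 220) and 70.5 CPM (interval 49.9 to 96.8), so its levels did not differ beyond counting error. Its largest count, 11, lay in the deepest barcode. It met ppk26 in 11 barcodes of replicate 2 and in 0 of replicate 3.

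Some pickpocket genes had most or all of their few counts in replicate 1. ppk16 had 5, 0 and 0 counts in replicates 1, 2 and 3, ppk19 had 4, 0 and 0, ppk17 had 3, 0 and 0, and ppk20 had 8, 1 and 1, of which 5 lay in 1 barcode of replicate 1. ppk18 and ppk8 were counted only in replicate 3, with 6 and 3 counts. A count of 0 allows up to 8.68 CPM in replicate 3, and ppk17 and ppk19 stood at 6.03 and 8.04 CPM in replicate 1, so their absence from replicate 3 is not shown. These counts are too few to rank the genes, and apart from ppk20 the genes were named after their values were seen.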
